A study of Mus musculus with 8 samples.

Results

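The DNA replication machinery was followed as 47 genes, chosen as a list of textbook replication proteins and ordered by step: origin recognition, licensing, helicase, primase and polymerases, clamp and clamp loader, single-strand binding, flap removal and ligation, nucleotide supply, and chromatin assembly. Of the 47 genes, 46 had a named probe set above 0 and were measured, out of 10720 genes tested in all, and Chaf1a had no named probe set in the annotation used here. Where a gene had several probe sets, the one with the highest mean over the 8 arrays stood for it. The RNA was from bone marrow LSK cells of mice, the lineage-negative fraction with Sca-1 and Kit on its surface in which stem cells and uncommitted progenitors of blood are found. The 8 mice were 4 normal animals of WT genotype (control 1 to 4) and 4 with a conditional knockout of Msi2, the gene of the RNA-binding protein Musashi-2 (Msi2 KO 1 to 4). The Cre driver, the way deletion was induced and the age and sex of the animals are not given in the sources used here, nor whether the controls carried a Cre or a floxed allele. Values are RMA log2 signals of Affymetrix arrays, and a difference is the mean of the Msi2 KO arrays minus the mean of the controls.

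Chromosomal replication begins when the origin recognition complex (Orc1 to Orc6) recruits Cdc6 and Cdt1, which load the ring of Mcm2 to Mcm7 onto DNA. Cdc45 and the GINS proteins then turn that ring into the active helicase, primase lays down short RNA primers, and the replicative polymerases copy the strands while held by the PCNA clamp. Most of these genes are transcribed in cycling cells under E2F factors as cells enter S phase, while most stem cells in the LSK fraction rest and its progenitors cycle.

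The deleted gene was read first as a check of the labels. As a percentage of the control mean, Msi2 signal on its 4 bright probe sets was 72.6%, 63.4%, 15.1% and 40.5% on the KO arrays in order, and 91.1% to 111% on the controls. The KO arrays were all lower, unevenly so, and Msi2 KO 3 was lowest. Msi2 KO 3 also had the lowest array weight (0.445, against 0.608 to 2.17 on the others), so values without it are given for some genes, steps and lists. These are not always the ones that moved most: without it Gmnn went from -0.01 to -0.28 and Orc5 from 0.55 to 0.29. Xist RNA, made from an inactive X, read 4.79 to 5.55 on 3 arrays, control 1, Msi2 KO 1 and Msi2 KO 2, and 11.92 to 12.51 on the other 5, and the labels do not give sex. Of the markers of LSK cells, Kit (8.70 in controls and 9.04 in Msi2 KO), Cd34, Flt3 and Slamf1 were measured, while Ly6a, the gene of Sca-1, was not analysed here. All 4 T cell markers were listed at 0, as were 3 of the 6 B cell markers, and the 2 measured B cell markers had lower means in KO (median -0.80).

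To see which replication genes carry the recognition letters of the factors named above, the promoter windows of RefSeq (GRCm38.p6, 250 bases before to 50 after a gene's start) were searched. 39 of the 47 genes had at least 1 window, 48 in all. The E2F letters TTTCCCGC, TTTGGCGC, TTTCGCGC or TTTGCCGC, on either strand, stood in 15 of the 48 windows (31.2%), against 744 of all 32851 windows (2.26%). CCAAT, the box bound by NF-Y, stood on either strand in 28 (58.3%) against 12289 (37.4%), and both in 9 (18.8%) against 0.962% of all. In these windows 1 E2F match overlapped a CCAAT match. Of the 15 genes with E2F letters, 8 are shown as 50 bases around the match, with the E2F letters in capitals and each read 5′ to 3′ on the gene's strand, and Orc3, Cdt1, Gins3, Pold1, Pole2, Lig1 and Uhrf1 are the others. The 8 shown span the steps from origin to clamp loader: the largest origin subunit gene, the loader Cdc6, 4 of the MCM ring genes, the polymerase alpha catalytic subunit and a clamp loader subunit.
Orc1 promoter, chr4:108579406-108579455, plus strand: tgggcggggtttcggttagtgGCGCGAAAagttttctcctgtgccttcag
Cdc6 promoter, chr11:98907992-98908041, plus strand: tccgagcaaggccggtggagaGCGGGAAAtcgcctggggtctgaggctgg
Mcm3 promoter, chr1:20820265-20820314, minus strand: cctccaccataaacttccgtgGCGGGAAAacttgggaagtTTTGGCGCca
Mcm5 promoter, chr8:75109335-75109384, plus strand: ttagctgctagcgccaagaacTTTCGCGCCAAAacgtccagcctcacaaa
Mcm6 promoter, chr1:128359787-128359836, minus strand: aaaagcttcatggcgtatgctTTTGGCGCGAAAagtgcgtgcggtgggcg
Mcm7 promoter, chr5:138172020-138172069, minus strand: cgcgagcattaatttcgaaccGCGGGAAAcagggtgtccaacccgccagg
Pola1 promoter, chrX:93632265-93632314, minus strand: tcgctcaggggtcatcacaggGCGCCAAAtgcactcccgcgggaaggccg
Rfc3 promoter, chr5:151651190-151651239, minus strand: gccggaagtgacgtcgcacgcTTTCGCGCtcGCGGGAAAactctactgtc
The first match began at -138 in Cdc6, -153 in Mcm5 and -110 in Mcm6, counted from the gene's start as 0. In Mcm5 and Mcm6 the capitals join overlapping matches of both strands. For comparison, 3 genes that read higher in Msi2 KO below had no E2F letters in their windows, and their CCAAT boxes are in capitals.
Prim1 promoter, chr10:128015183-128015232, plus strand: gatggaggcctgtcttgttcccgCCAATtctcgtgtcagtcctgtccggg
Rrm2 promoter, chr12:24708181-24708230, plus strand: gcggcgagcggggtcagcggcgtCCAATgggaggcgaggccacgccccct
Cdc45 promoter, chr16:18811959-18812008, minus strand: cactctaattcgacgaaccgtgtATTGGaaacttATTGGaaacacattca
Genes with E2F letters (15) had a median log2 difference of 0.09, from -0.25 to 0.61, and measured genes whose windows lacked them (23) 0.10, from -0.28 to 0.62. The medians and ranges were close with and without the letters, and no test was run. Cdc6, which also read higher, had the letters, and Prim2 had no window. A match is a description of these letters only.

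Across the machinery as a whole, no gene passed the test between Msi2 KO and control. At an adjusted p under 0.05 in limma the count was 0 of 46 (lowest adjusted p 0.293, for Prim2) and 0 of all 10720 genes tested (0%, lowest adjusted p 0.176). Msi2, the deleted gene, did not pass either (-1.12 ± 0.50 on its brightest probe set, SE, adjusted p 0.442 in limma). A count of 0 therefore does not show that no gene changed. At an unadjusted p under 0.05, 5 of 46 genes read higher (10.9%, against 5.74% of all genes) and 0 lower (5.66% of all genes). All 4 KO arrays lay above all 4 controls for 4 genes, Cdc6, Prim1, Prim2 and Rrm2 (8.70%, against 3.63% of all genes), and below them for 0 (3.48%). The median log2 difference was 0.08, against 0.00 over all genes, and 29 of 46 means were higher in KO (63.0%, against 50.4%). Without Msi2 KO 3 the median was 0.03, with 27 of 46 higher, and 4 genes lay above all controls and 4 below (5.30% and 5.42% of all genes). For 18 genes the 95% interval of the difference lay within 0.5 of 0 on the log2 scale (39.1%, against 28.2% of all genes). In bulk RNA, a change in the share of cycling cells and a change in RNA per cell cannot be told apart.

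**Figure D1:**
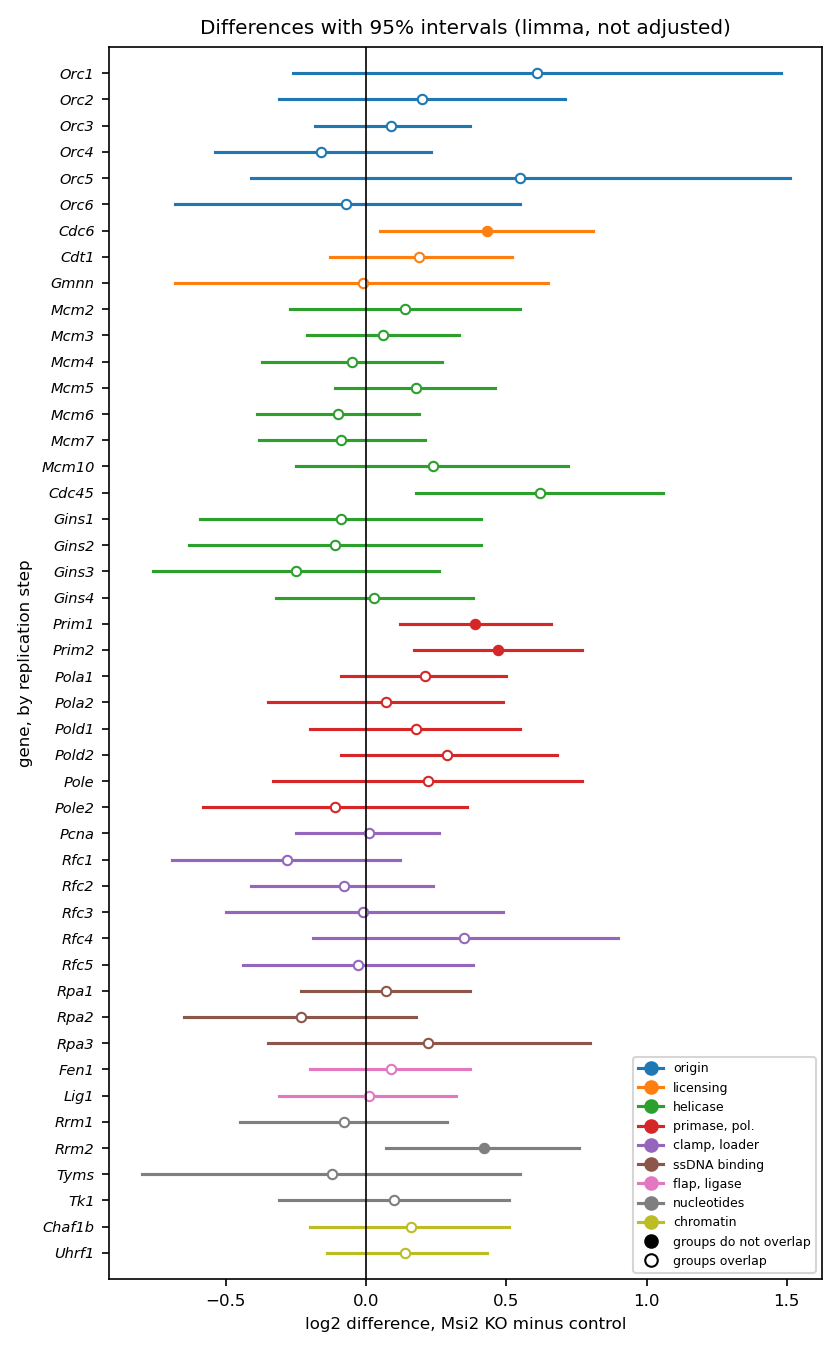
Log2 difference between Msi2 KO and control for each of the 46 measured replication genes (x axis), ordered and coloured by step, with limma's unadjusted 95% interval. Filled points mark the 4 genes whose groups do not overlap, all to the right of 0, and most of the intervals span 0.

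Origin recognition showed no common shift. Of its 6 subunit genes 4 had higher means in KO and 2 lower, with differences from -0.16 to 0.61 and a median of 0.15. The median was 0.04 without Msi2 KO 3. Orc1, the ATPase subunit whose level cycles, read 6.11, 5.77, 5.45 and 5.92 on controls 1 to 4 and 7.19, 5.65, 7.17 and 5.68 on Msi2 KO 1 to 4. Its higher mean (0.61 ± 0.39, SE, adjusted p 0.580 in limma) came from Msi2 KO 1 and Msi2 KO 3, while the other KO arrays lay within the controls. Leaving out Msi2 KO 3 gave 0.36, and leaving out Msi2 KO 1 gave 0.35. A dimmer Orc1 probe set differed by -0.32. Orc5 varied as much within the groups as between them, at 5.42 to 6.78 in controls and 5.49 to 7.48 in KO. Orc2 (0.20), Orc3 (0.09), Orc4 (-0.16) and Orc6 (-0.07) differed by less than the SD of the KO arrays.

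In licensing, the loader Cdc6 read higher in KO, while its partner Cdt1 and the inhibitor of Cdt1 did not separate. The median of the 3 genes was 0.19, and 0.11 without Msi2 KO 3. Cdc6 stood at 8.99, 9.27, 9.14 and 8.69 on controls 1 to 4 and at 9.34, 9.40, 9.76 and 9.32 on Msi2 KO 1 to 4. The lowest KO array lay just above the highest control. The difference was 0.43 ± 0.17 (SE), a 1.35-fold higher mean (adjusted p 0.397 in limma, two-sided exact permutation p 0.0286, the smallest that 4 arrays against 4 can give). Without Msi2 KO 3 it was 0.33. Cdt1, which loads the MCM ring together with Cdc6, differed by 0.19, from 10.74 ± 0.15 in controls to 10.93 ± 0.19 in KO (SD, n = 4 each). Geminin (Gmnn), which binds and blocks Cdt1, was level in the means (-0.01) but ran from 9.60 to 10.83 within KO, highest on Msi2 KO 3.

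The MCM ring genes read close to control on their brightest probe sets. Mcm2 to Mcm7 had differences from -0.10 to 0.18 with a median of 0.01, and for 5 of the 6 the 95% interval lay within 0.5 of 0. The names of all 6 probe sets mark them as shared with other sequences, so these intervals do not bound the unshared ones. Mcm6 read 11.94, 11.89, 11.86 and 11.90 on the controls and 11.94, 11.84, 11.84 and 11.54 on Msi2 KO 1 to 4, so only Msi2 KO 4 left the control range clearly. Mcm7, another ring subunit, read 12.33, 12.20, 12.14 and 12.11 on the controls and 12.00, 12.03, 12.34 and 12.06 on KO. Mcm5 read 11.21, 11.24, 11.24 and 11.41 on the controls and 11.50, 11.56, 11.50 and 11.26 on KO. Its difference was 0.18 on the bright probe set (95% interval -0.11 to 0.46), whose name marks it as shared with other sequences. With such shared probe sets left out, Mcm5 differed by 0.50 and Mcm2 by 0.02. The sign turned for Mcm3 (-0.11), Mcm4 (0.11), Mcm6 (0.11) and Mcm7 (0.30).

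The factors that switch the ring on did not move as a block. Cdc45, which joins the ring in the active helicase, read 6.29, 6.89, 6.74 and 6.50 on controls 1 to 4 and 7.23, 7.15, 7.64 and 6.88 on Msi2 KO 1 to 4. 3 KO arrays lay above every control and Msi2 KO 4 fell just inside their range. Its difference of 0.62 ± 0.20 (SE), 1.54-fold, was the largest of the 46 genes on their brightest probe sets and missed the threshold (adjusted p 0.324 in limma, two-sided exact permutation p 0.0571). The value was 0.48 with Msi2 KO 3 left out. A dimmer Cdc45 probe set differed by -0.06. Its partners in the helicase, Gins1 (-0.09), Gins2 (-0.11), Gins3 (-0.25) and Gins4 (0.03), had 3 of 4 means lower in KO, with every group overlapping. Mcm10, which helps to activate the helicase, differed by 0.24, with Msi2 KO 3 (9.01) and Msi2 KO 4 (8.83) above all controls (8.15 to 8.55). Its dimmer probe sets differed by 0.08 and 0.01, and on both Msi2 KO 4 lay below all controls (7.58 and 6.97).

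Both primase genes read higher on all KO arrays, and 7 of the 8 genes of primase and polymerases had higher means in KO (median 0.21, -0.11 to 0.47). Without Msi2 KO 3 the count was 6 of 8 and the median 0.20, and in the low-Xist arrays alone 4 of 8 and -0.03. Prim2, the large primase subunit, read 8.32, 8.07, 8.14 and 8.19 on controls 1 to 4 and 8.55, 8.63, 8.90 and 8.54 on Msi2 KO 1 to 4. The groups did not overlap, and the difference of 0.47 ± 0.13 (SE), 1.39-fold, had the smallest p of the machinery (adjusted p 0.293 in limma). Its second probe set gave 0.66, from 7.28 ± 0.14 to 7.94 ± 0.37 (SD, n = 4 each), also without overlap. Prim1, the catalytic subunit, read 9.38, 9.57, 9.43 and 9.46 on the controls and 9.69, 9.84, 9.97 and 9.90 on KO. That difference was 0.39 ± 0.12 (SE, adjusted p 0.322 in limma), 1.31-fold. On the second Prim1 probe set, of like brightness, the groups overlapped and the means were equal (9.17 ± 0.09 in controls, 9.18 ± 0.36 in KO, SD, n = 4 each), so the Prim1 result rests on 1 probe set. Without Msi2 KO 3 the differences were 0.39 for Prim2 and 0.35 for Prim1.

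The polymerase genes themselves overlapped between groups. Pola1, the catalytic subunit of polymerase alpha, read 8.09, 8.16, 7.97 and 8.24 on the controls and 8.37, 8.47, 8.32 and 8.12 on Msi2 KO 1 to 4 (0.21 ± 0.13, SE). Only Msi2 KO 4 lay within the controls. Pold2, the accessory subunit of polymerase delta, read 8.80, 8.32, 8.54 and 8.38 on the controls and 8.44, 8.84, 9.01 and 8.92 on KO (0.29 ± 0.17, SE). Msi2 KO 2 to Msi2 KO 4 lay above all controls and Msi2 KO 1 within them. Pola2 (0.07), Pold1 (0.18), Pole (0.22) and Pole2 (-0.11) did not separate. Among them Pole, the catalytic subunit of polymerase epsilon, was lowest on Msi2 KO 1 (7.70) and highest on Msi2 KO 3 (8.72).

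**Figure D2:**
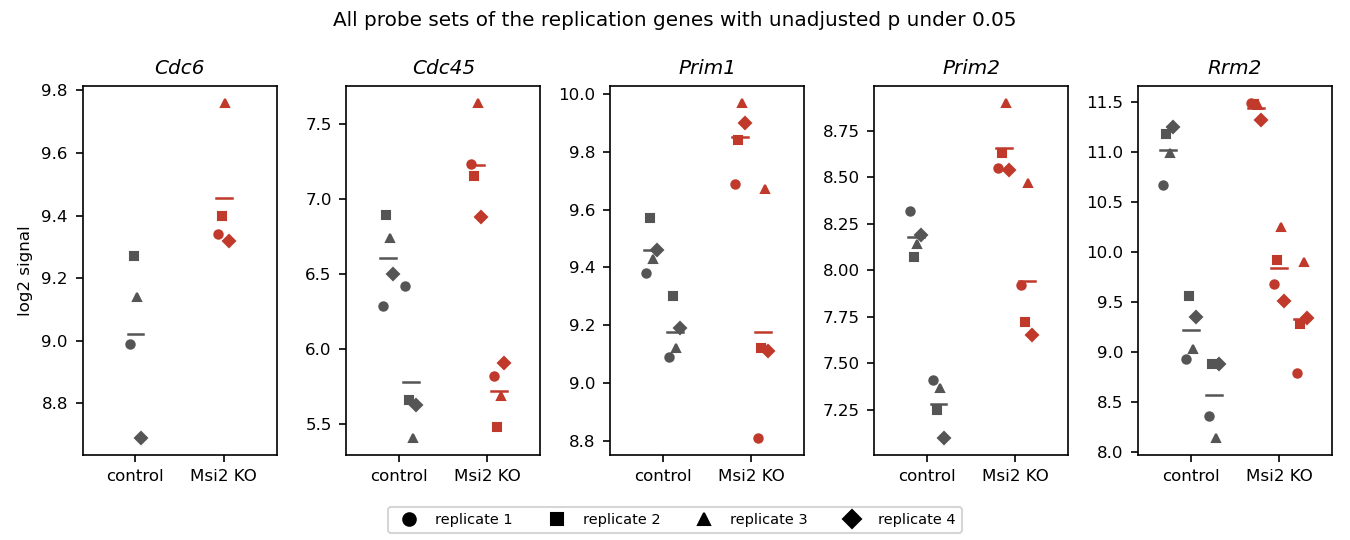
Log2 signal (y axis, a separate scale for each gene) of every probe set above 0 for the 5 replication genes with an unadjusted p under 0.05, in control (grey) and Msi2 KO (red), probe sets ordered from bright to dim within each group, with bars at the means. Both probe sets of Prim2 and all 3 of Rrm2 have higher KO means, while the second probe sets of Prim1 and Cdc45 have equal or nearly equal means.

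The clamp gene read level, and its loader genes had no common direction. Pcna, the sliding clamp, stood at 12.12, 12.04, 12.07 and 12.10 on the controls and at 12.00, 12.10, 12.19 and 12.07 on Msi2 KO 1 to 4. The difference of 0.01 had a 95% interval of -0.25 to 0.26 and an SE of 0.11, the smallest of the 46 genes. Over the 6 genes the median was -0.02, and -0.28 in the low-Xist arrays, with 1 of 6 higher. Rfc4, a small subunit, read 8.88, 9.07, 8.79 and 8.97 on the controls and 8.65, 9.69, 9.74 and 9.06 on KO (0.35 ± 0.24, SE), above all controls on Msi2 KO 2 and Msi2 KO 3 only, and the difference was 0.20 without Msi2 KO 3 and 0.12 with shared probe sets left out. Rfc1, the large subunit, read 10.17, 10.15, 9.98 and 9.70 on the controls and 9.47, 9.50, 9.82 and 10.07 on KO (-0.28 ± 0.18, SE), low on Msi2 KO 1 and Msi2 KO 2. Rfc2 (-0.08), Rfc3 (-0.01) and Rfc5 (-0.03) had differences near 0.

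Single-strand binding and strand joining showed no separation between groups. Rpa2, the middle subunit of the RPA complex that coats single-stranded DNA, read 10.02, 9.91, 9.74 and 9.77 on the controls and 9.52, 9.25, 10.08 and 9.66 on Msi2 KO 1 to 4 (-0.23 ± 0.18, SE). It was below all controls on 3 KO arrays and above them on Msi2 KO 3. Rpa1 differed by 0.07 and Rpa3 by 0.22. Fen1, the flap endonuclease that trims Okazaki fragments, read 12.27, 12.38, 12.37 and 12.38 on the controls and 12.40, 12.55, 12.58 and 12.22 on KO (0.09 ± 0.13, SE). DNA ligase I (Lig1), which seals those fragments, differed by 0.01, with a 95% interval of -0.31 to 0.32.

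Of the nucleotide supply genes, Rrm2 was the one whose groups separated on the brightest probe set. Rrm2, the small subunit of ribonucleotide reductase that is made in S phase, read 10.67, 11.18, 10.99 and 11.25 on controls 1 to 4 and 11.49, 11.48, 11.47 and 11.32 on Msi2 KO 1 to 4. The KO arrays were tightly grouped (SD 0.08) and all above the controls (SD 0.26), with a difference of 0.42 ± 0.15 (SE), 1.33-fold (adjusted p 0.386 in limma). The name of this brightest probe set marks it as shared with other sequences. The dimmer Rrm2 probe sets gave 0.62 and 0.76, both with overlapping groups. Rrm1, the large subunit of the same enzyme, did not follow, at -0.08 with a range of 10.96 to 11.66 in KO. Tk1, the thymidine kinase of S phase, differed by 0.10. Tyms, thymidylate synthase, differed by -0.12 with a control SD of 0.66. Its probe sets were dim (6.68 in controls on the brightest), and the second of them lay below all controls on all KO arrays (-0.58, means of 4.90 in controls and 4.32 in KO).

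The 2 measured genes of chromatin assembly and copying of methylation overlapped between groups on their brightest probe sets. Chaf1b, a subunit of the histone chaperone CAF-1, read 9.33, 9.23, 8.84 and 8.82 on the controls and 9.07, 9.28, 9.35 and 9.15 on Msi2 KO 1 to 4 (0.16 ± 0.16, SE), with overlap. Uhrf1, which brings the maintenance methyltransferase to newly copied DNA, read 10.03, 9.90, 9.98 and 9.98 on the controls and 10.01, 10.06, 10.35 and 10.04 on KO (0.14 ± 0.13, SE). Its dimmer probe set gave 0.44, with Msi2 KO 1 to Msi2 KO 3 above all controls.

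The replication genes also varied from one KO array to the next. Msi2 KO 3 was above all 4 controls for 33 of 46 genes (71.7%, against 31.7% of all genes) and below them for 3 (6.52%, against 28.2%). It was the highest of the 8 arrays for 28 genes (60.9%, against 23.1%). Msi2 KO 1 went the other way, below all controls for 16 genes (34.8%, against 25.1%), above them for 11 (23.9%, against 22.2%) and the lowest array for 14 (30.4%, against 14.6%). Msi2 KO 2 was above all controls for 17 genes (37.0%, against 25.6%) and below for 10 (21.7%, against 23.6%). Msi2 KO 4 was above for 13 (28.3%, against 21.8%) and below for 7 (15.2%, against 20.3%). The SD of KO exceeded that of control for 37 of 46 genes (80.4%, against 61.5%), and without Msi2 KO 3 for 28 (60.9%, against 51.0%).

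**Figure D3:**
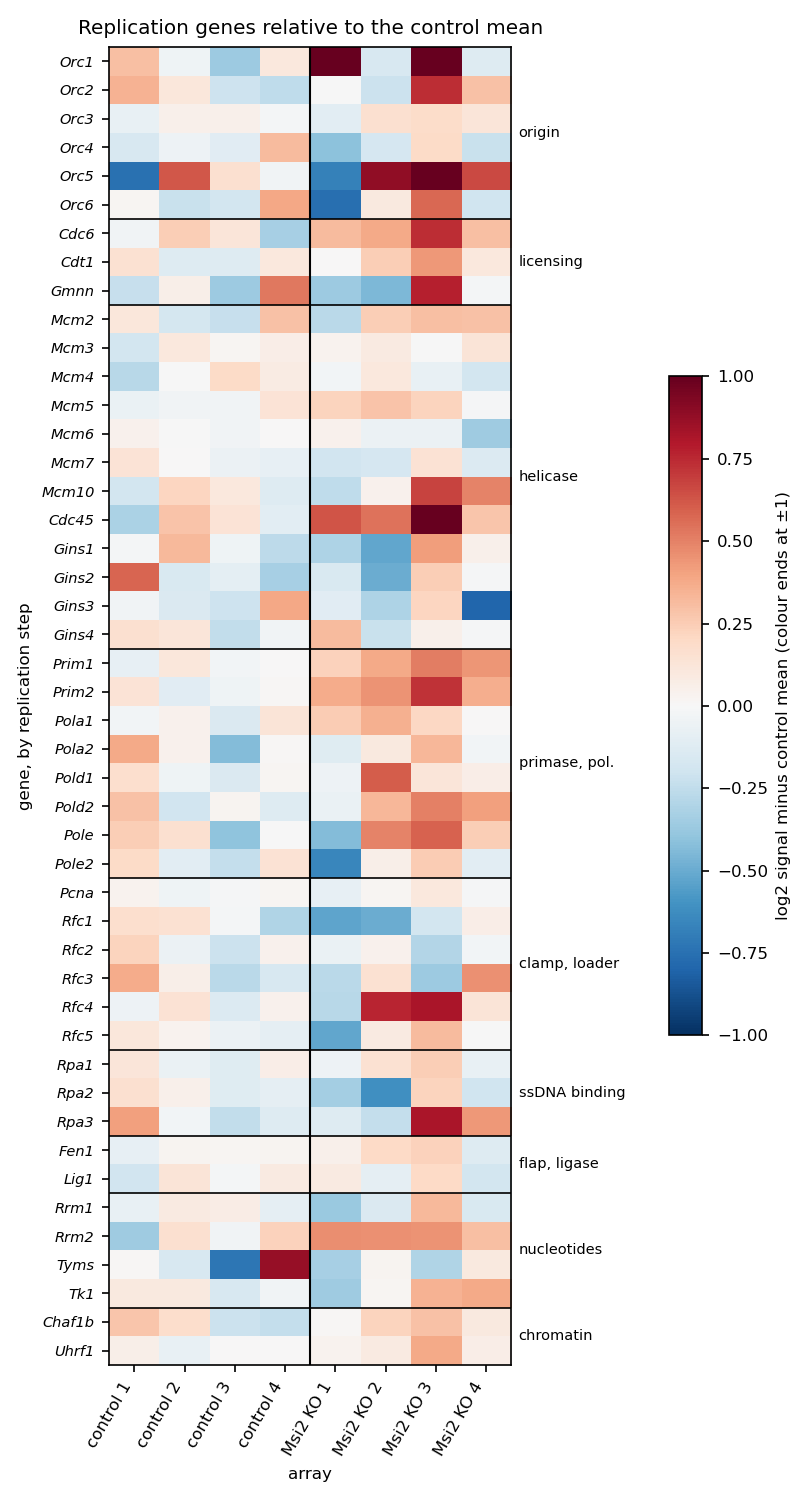
Log2 signal minus the control mean (colour, red higher and blue lower, ends at ±1) for the 46 measured replication genes (rows, grouped by step) on the 8 arrays (columns). Msi2 KO 3 is red for most rows, including the origin and licensing genes, Msi2 KO 1 is blue for many, and the rows of Mcm3 to Mcm7 and Pcna stay pale throughout.

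The median deviation of the 46 genes from the control mean was -0.09, 0.09, 0.30 and 0.06 on Msi2 KO 1 to 4, with controls between -0.10 and 0.05. Steps differed in how far Msi2 KO 3 stood out. Its median was 0.66 for origin recognition and 0.74 for licensing, where the controls ran from -0.15 to 0.04 and from -0.12 to 0.10. For Mcm2 to Mcm7 it was 0.07, equal to the highest control, and for the clamp and its loader -0.04. The MCM value depended on the probe sets, which were all marked as shared. On their brightest unshared probe sets Mcm2 (9.63), Mcm4 (10.24), Mcm5 (10.81), Mcm6 (11.17) and Mcm7 (9.66) lay above all controls on Msi2 KO 3. Mcm3 (10.19) lay below all controls there. Primase and polymerases stood at -0.06, 0.37, 0.41 and 0.15 on Msi2 KO 1 to 4, with controls between -0.14 and 0.18.

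**Figure D4:**
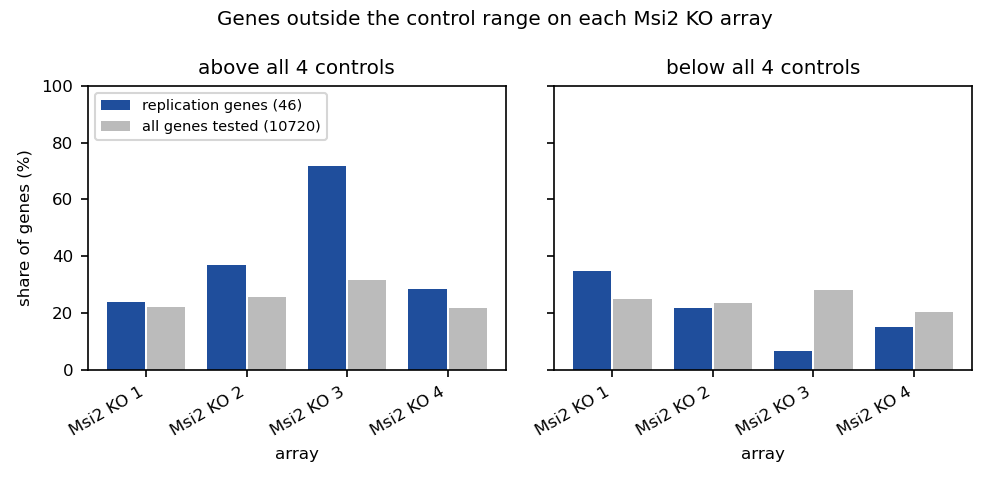
Share of genes (y axis, percent) above all 4 controls (left) or below all 4 (right) on each Msi2 KO array, for the 46 replication genes (blue) and all 10720 genes tested (grey). On Msi2 KO 3 the blue bar reaches 71.7% above the controls against 31.7% for all genes.

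Arrays with low and with high Xist gave different pictures, and their KO arrays also differed in Msi2 signal. That signal was 72.6% and 63.4% of the control mean on the low-Xist Msi2 KO 1 and Msi2 KO 2. On the high-Xist Msi2 KO 3 and Msi2 KO 4 it was 15.1% and 40.5%. Xist and the remaining Msi2 signal therefore cannot be told apart in these strata. Among the high-Xist arrays (3 controls, Msi2 KO 3 and Msi2 KO 4) 39 of 46 genes were higher in KO, with a median of 0.20, and 16 were above all controls and 2 below (17.6% and 15.7% of all genes). Among the low-Xist arrays (control 1, Msi2 KO 1 and Msi2 KO 2) 18 of 46 were, with a median of -0.12, and 12 were above the control and 19 below (34.0% and 36.8% of all genes). Origin recognition had medians of 0.41 and -0.02 in the high-Xist and low-Xist arrays, licensing 0.32 and -0.03, helicase 0.07 and -0.08, and primase and polymerases 0.36 and -0.03. Prim2 (0.58 and 0.27), Prim1 (0.45 and 0.38), Cdc6 (0.50 and 0.39), Rrm2 (0.26 and 0.81) and Cdc45 (0.55 and 0.90) were higher in both. Rpa3 (0.77 and -0.59), Orc2 (0.63 and -0.45) and Gins2 (0.31 and -0.91) had opposite signs, values picked after they were seen, and the difference between the strata was not tested.

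Markers of erythroid cells were also highest on Msi2 KO 3. All 12 measured of 17 erythroid markers had higher means in KO (median 1.37), with medians of 0.45, 1.12, 2.46 and 1.40 on Msi2 KO 1 to 4 and controls between -0.43 and 0.58. Their summed linear signal ran from 5128 to 10252 in controls and from 8577 to 22444 in KO, highest on Msi2 KO 3. The late markers Hba-a1 and Alas2 were listed at 0. The 4 measured LSK markers had a median of -1.04 on Msi2 KO 3, against -0.14 to 0.05 in controls, with Flt3 at 7.52 there and between 9.40 and 9.80 in controls, Cd34 at 9.68 and Slamf1 at 4.81. Kit was not lower, at 9.02 there, which lay within the controls (8.39 to 9.16, mean 8.70). Their summed signal was 1551 on Msi2 KO 3, 2570 to 2846 in controls and up to 3014 on the other KO arrays. Mast cell and basophil markers (6 of 6 measured) had medians of 0.13, 0.51, 1.53 and 1.53 on Msi2 KO 1 to 4, and 5 of 7 myeloid markers 0.20, -0.06, 0.29 and 0.66. The part of these markers in the replication values was not tested.

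**Figure D5:**
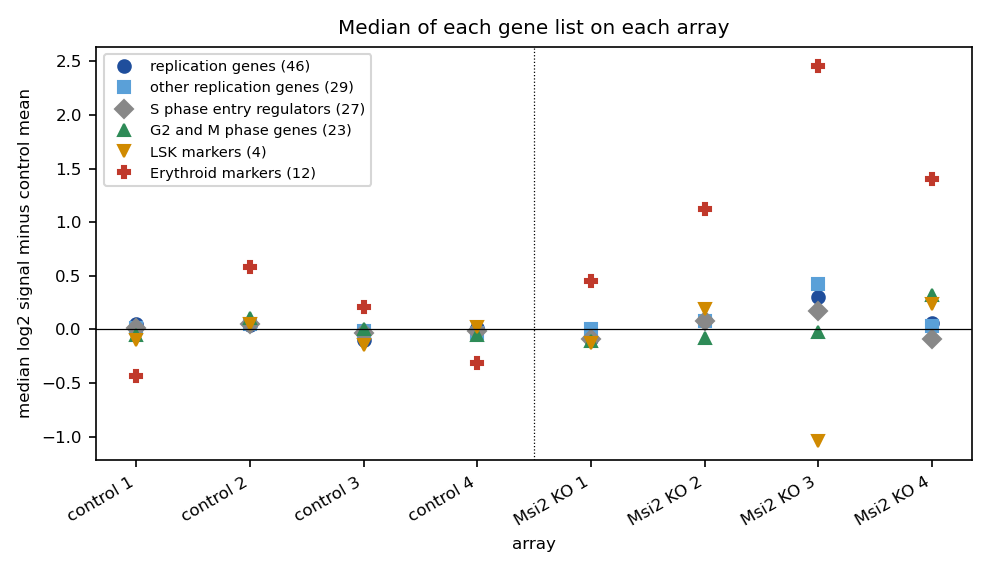
Median log2 signal minus the control mean (y axis) of 6 gene lists on each of the 8 arrays (x axis), with the number of measured genes in the legend. Erythroid markers reach 2.46 on Msi2 KO 3, the replication genes 0.30 and the LSK markers -1.04, while the G2 and M phase genes stay at -0.02 there.

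Further genes of the pathway were read from a list of their own. Of 29 further replication factors 19 had higher means in KO (median 0.10), and 0 passed limma's adjusted threshold. With Msi2 KO 3 left out the count was 16 of 29 and the median 0.05. Their median on Msi2 KO 3 was 0.42, with controls between -0.03 and 0.05. Dbf4, the partner that activates the Cdc7 kinase at origins, read 7.64, 8.21, 7.99 and 7.57 on the controls and 8.28, 8.30, 8.54 and 8.35 on KO, without overlap (0.52 ± 0.17, SE). Ticrr, which helps Cdc45 to load, differed by 0.56 ± 0.21 (SE), also without overlap. Recql4, a helicase of origin firing, differed by 0.58 with overlap. Of 13 measured further genes of nucleotide supply 7 were higher (median 0.13, Cad at 0.53, Dctd at 0.43, Dck at -0.26), and of 9 measured further chromatin genes 5 (median 0.01, Asf1b at 0.35, Hells at -0.24, Dnmt1 at 0.12). Without Msi2 KO 3 the nucleotide supply median was 0.01 with 7 of 13 higher, and the chromatin median turned to -0.09 with 3 of 9 higher.

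Regulators of S phase entry had no common direction, with 12 of 27 measured genes higher in KO (median -0.01) and 0 past the adjusted threshold. The inhibitor Cdkn1a read 8.01, 8.60, 8.31 and 7.92 on the controls and 7.28, 7.79, 7.41 and 7.51 on KO, below all of them (-0.71 ± 0.18, SE, adjusted p 0.276 in limma). Ccne1, cyclin E1, differed by 0.63 ± 0.22 (SE) and the pocket protein gene Rb1 by 0.83 ± 0.23 (SE), both above all controls on every KO array. G2 and M phase genes were level (13 of 23 higher, median 0.04), and their highest array was Msi2 KO 4 (0.32), not Msi2 KO 3 (-0.02). Among them Cenpa, the centromeric histone, differed by 0.58 (above all controls on every KO array), Ndc80 by -0.26 (below all controls) and Ube2c by 0.37 (with overlap), with 0 past the adjusted threshold. In the G2 and M phase list 1 of 23 genes lay above all controls and 2 below. The counts were 2 and 2 of 27 S phase regulators, and 2 and 0 of the 29 further replication factors. Over all genes the shares were 3.63% above and 3.48% below.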

How the data were processed

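The deposited table holds log2 signals of 45101 probe sets on 8 arrays, normalized by the authors with RMA per the submitters' processing notes, with no version given. In it 20664 probe sets (45.8%) were exactly 0 on all arrays by an unstated step and were left out. Names came from the platform annotation, updated through gene IDs and RefSeq (GRCm38.p6). Of the probe sets, 34741 were named through a gene ID, 204 as annotated, 932 carried several genes and 9211 none, and 13 AFFX controls were left out.

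The test between groups was that of limma 3.58.1 (R 4.3.3), two-sided, after lmFit and eBayes. P-values were adjusted by Benjamini-Hochberg over all 10720 genes, with 0.05 as the threshold. Exact permutation went through all 70 ways to split the arrays. The number of arrays limits the precision.

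The genes, lists and tests were chosen with earlier results of these data known. Values on every array are given for the 10 genes with the smallest p, for the gene with the largest difference in each step, and for others chosen after their values were seen. The 3 genes with the smallest p are named of each further list. Alternatives were 20 other settings: each array left out in turn, quantile normalization repeated, median centring, genes below the median level left out, genes listed at 0 kept, the mean of a gene's probe sets, shared probe sets left out, array weights, the replicate block, a prior that was robust and followed intensity, Xist as a covariate, and the high-Xist or low-Xist arrays alone. The labels do not say whether arrays with the same replicate number were paired. Deviations from the group mean correlated at 0.137, -0.172, 0.0751 and -0.0207 in the same-numbered pairs. Other pairs ran from -0.188 to 0.208, and such correlations cannot show whether a pairing existed.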

Additional observations from a re-analysis of the deposited data

Results flagged for a closer look

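5 values lay far from the other 3 arrays of their group, by Dixon's criterion at its 95% critical value, out of 92 groups of 4 checked (5.43%), where chance flags about 1 group in 20. Mcm2 read 9.51 on Msi2 KO 1, below the other KO arrays (10.02 to 10.08). Mcm5 read 11.41 on control 4, above the other controls (11.21 to 11.24). Fen1 read 12.27 on control 1, below the other controls (12.37 to 12.38). Rrm2 read 11.32 on Msi2 KO 4, below the other KO arrays (11.47 to 11.49) and still above every control. Uhrf1 read 10.35 on Msi2 KO 3, above the other KO arrays (10.01 to 10.06).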

How the results depend on the processing

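0 of the replication genes passed limma's adjusted threshold under any of the 20 alternatives. Over all genes, 1 passed without Msi2 KO replicate 1 (Zg16) and 4 with Xist as a covariate (Fcer1a, Fscn1, Mt1 and Nhsl1, none of them a replication gene), and 0 in the rest. The number of genes above all controls ran from 4 to 8 when 1 array was left out, highest without Msi2 KO replicate 1 or 4, and the number below from 0 to 4, highest without Msi2 KO replicate 3. Over all genes those shares were 7.17% and 5.64% above, and 5.42% below. With shared probe sets left out 3 replication genes were above all controls (3.67% of all genes), and with the mean of a gene's probe sets also 3 (3.77%). In the high-Xist arrays alone 16 were above and 2 below (17.6% and 15.7% of all genes), and in the low-Xist arrays 12 and 19 (34.0% and 36.8%), where fewer arrays make separation easier. The median difference of the replication genes ran from 0.03 to 0.14 over the left-out arrays and turned to -0.12 in the low-Xist arrays, where the lone control is assumed to vary like the KO arrays. There Pold2 (-0.16) and Chaf1b (-0.15) also turned, and in the high-Xist arrays Rfc1 (0.00) and Rpa2 (0.06) did; the cause was not tested. The other 9 of the 13 genes named by rule kept their direction under every alternative that could be fitted. With genes below the median level left out, 42 replication genes remained and neither Orc1 nor Cdc45 was tested. With the replicate block 0 replication genes passed, the median stayed at 0.08, and no call of a replication gene changed.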

Other observations

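Of the 46 genes, 31 had at least 2 probe sets above 0. For 7 of them (22.6%, against 33.3% of all such genes) the brightest and the next probe set differed between the groups in opposite directions. The next probe set gave the larger difference in size for 19 of 31 (61.3%, against 51.6%). Such genes were Rrm2 (0.42 and 0.62), Mcm5 (0.18 and 0.50), Fen1 (0.09 and 0.48), Pold1 (0.18 and 0.41), Uhrf1 (0.14 and 0.44) and Cdt1 (0.19 and 0.36), examples picked after their values were seen. The dimmer Fen1 probe set read 9.03 on Msi2 KO 3, while the other 7 arrays ran from 7.01 to 7.47.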
